A study of Mus musculus with 6 samples.

Results

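The p53 pathway genes described here were 9 of the 31055 features of a single-cell RNA matrix from sorted lung tumour cells: Trp53, Cdkn1a, Sfn, Mdm2, Ccng1, Phlda3, Bax, Trp53inp1 and Cdkn2a. They were chosen by gene symbol, and each symbol matched 1 feature. The tumours came from 6 mice, 4 male and 2 female, in which Lenti-Cre had switched on a tdTomato reporter and had inactivated Lkb1 through the XTR allele, a gene trap in both copies of the gene that a FLPo recombinase can remove. The genotype included Lkb1XTR/XTR and Rosa26LSL-tdTomato in all mice, with FLPo-ERT2 as the second Rosa26 allele in 4 of them, and no Trp53 allele was listed. The 3 Restored mice carried FLPo-ERT2 and received Tamoxifen, whereas the 3 NonRestored mice were 1 with FLPo-ERT2 given Vehicle, 1 without it given Tamoxifen and 1 without it given Vehicle. Tumours grew for 20 weeks, treatment covered the 2 weeks before harvest with Tamoxifen in 4 mg doses, and ages were not given in the labels. Cells positive for CD45, CD31, F4/80 or Ter119 and dead cells were removed by sorting.

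The matrix held all mice together and nothing read here tied a cell to a mouse. Restored and NonRestored mice were therefore not compared, cell barcodes shared between libraries were not counted, and the pooled matrix counted as 1 sample. Differences between mice, genotypes or treatments and differences between cell gates cannot be told apart, and no p-value could be given. Of 16017 barcodes, 12183 had at least 500 genes and at most 20% mitochondrial UMIs (unique molecular identifiers, each standing for 1 captured RNA molecule). These cells held 257163522 UMIs, from 671 to 125731 a cell, of which the 9 genes made up 291069 or 0.113%.

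p53, the product of Trp53, is a transcription factor that accumulates when DNA is damaged or oncogenes are active, and it switches on genes that stop the cell cycle, repair DNA or start apoptosis. Mdm2 is both its target and the ubiquitin ligase that degrades it, which closes a feedback loop. The Cdkn2a locus encodes p16, an inhibitor of the kinases CDK4 and CDK6, and p19Arf, which blocks Mdm2 and so stabilises p53. In lung, damaged alveolar type II (ATII) cells that turn into alveolar type I (ATI) cells pass through a keratin-rich state known for p53 target expression.

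All 9 features carried gene identifiers of the GENCODE M21 annotation, whose build, GRCm38, is the mm10 build of the deposited counts. Trp53 lay at chr11:69580359-69591873 on the plus strand. Cdkn1a, which encodes the CDK inhibitor p21 (ENSMUSG00000023067), lay at chr17:29090976-29100727 on the plus strand. Sfn, which encodes the epithelial 14-3-3 sigma protein (ENSMUSG00000047281), was a gene with 1 annotated transcript at chr4:133600556-133602168 on the minus strand. Mdm2 lay at chr10:117688875-117710758 (minus), Ccng1, which encodes cyclin G1, at chr11:40748552-40755311 (minus) and Phlda3, which encodes an inhibitor of AKT signalling, at chr1:135766119-135769136 (plus). Bax, a pore-forming activator of apoptosis, lay at chr7:45461697-45466898 (minus), and Trp53inp1, a p53-induced nuclear protein gene, at chr4:11156431-11174379 (plus). Cdkn2a lay at chr4:89274471-89294653 (minus), with 2 annotated transcripts that differed in their first exons and shared 234 bases of their last exon, so 3′ counting could not separate p16 from p19Arf. The predicted gene Gm45808 overlapped Bax on the same strand and had 0 UMIs in the cells that passed. Reads in such an overlap can be left uncounted, and their part in the level of Bax was not tested.

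The start windows of the genes, 250 bases before to 50 after an annotated start (RefSeq, GRCm38.p6), were searched for the p53 consensus, a pair of 10-base half-sites read here without a spacer, with the central C and G of each half-site required. The motif is its own reverse complement, so both strands were searched at once. A window was given for 8 of the 9 genes, all but Trp53inp1. The windows of Cdkn1a and Ccng1 each held a 20-base match with 1 mismatch, and 22 of all 32851 windows, or 0.0670%, held one with at most 1. The closest stretch had 3 mismatches in the window of Trp53, 4 in that of Sfn and 5 in that of Phlda3, while 1.38%, 4.80% and 12.4% of all windows held one with at most 3, 4 and 5. The windows of Bax, Mdm2 and Cdkn2a held none with fewer than 7. Both windows with a match are shown 5′ to 3′ on the strand of the gene, with the match in capitals, because they hold the closest matches among the 9 genes. The Cdkn1a window is the upstream of its 2 annotated starts, chr17:29090729-29091028 on the plus strand, and the Ccng1 window is chr11:40755237-40755536 on the minus strand.
Cdkn1a: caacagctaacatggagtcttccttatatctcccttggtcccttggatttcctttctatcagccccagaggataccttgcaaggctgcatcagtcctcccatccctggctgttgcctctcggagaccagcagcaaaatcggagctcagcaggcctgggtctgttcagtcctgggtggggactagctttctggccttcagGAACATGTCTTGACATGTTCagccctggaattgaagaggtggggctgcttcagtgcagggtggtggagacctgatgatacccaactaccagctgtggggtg
Ccng1: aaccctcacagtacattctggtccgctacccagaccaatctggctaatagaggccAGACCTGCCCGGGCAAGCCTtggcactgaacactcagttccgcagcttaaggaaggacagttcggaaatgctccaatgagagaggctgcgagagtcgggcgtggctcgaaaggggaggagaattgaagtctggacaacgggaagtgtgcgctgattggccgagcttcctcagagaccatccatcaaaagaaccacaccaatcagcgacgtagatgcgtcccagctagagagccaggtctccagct
A match describes these letters only, and p53 binding was not measured.

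Cells were sorted into gates by UMIs per 10000 of the cell. The ATII gate held 6975 cells with Sftpc of at least 500, Hopx under 2 and Krt8 plus Krt18 under 50. The ATI gate held 956 cells with Hopx of at least 15 and the keratins under 50, and the keratin-high gate held 1183 cells with the keratins at 50 or above. A further 3069 cells fell in no gate. Cells with at least 3 of Mki67, Top2a, Ube2c, Birc5 and Cdk1 detected, 242 in all, were called cycling. Markers outside the rule followed the names of the ATII and ATI gates. In the ATI over the ATII gate, 9 of 10 ATII markers were at least 2-fold lower (6.63% of all features) and 8 of 8 ATI markers higher (10.3%). In the keratin-high gate, 6 of 6 markers of the transitional state were at least 2-fold higher than in the ATII gate (12.6%), as they also were in the ATI gate. Keratin-high over ATII, 7 of 8 ATI markers were also at least 2-fold higher, with a median ratio of 6.50, and 9 of 10 ATII markers lower (5.95%). Keratin-high over ATI, 5 of 6 transitional markers were at least 2-fold higher (6.02%) and 7 of 8 ATI markers lower (4.21%). The median depth was 21660 UMIs a cell in the ATII gate, 11796.5 in the ATI gate and 23490 in the keratin-high gate. The median mitochondrial share of UMIs was 4.28%, 2.21% and 1.96% in the same order. Cycling cells made up 1.62%, 0.105% and 3.80% of the 3 gates. Levels below are counts scaled to 1000000 UMIs after adding up the cells of a gate (CPM), with exact Poisson 95% intervals, and ratios of 2 levels carry exact conditional binomial 95% intervals. Both cover counting error only, not differences between mice. Because the libraries count RNA 3′ ends, levels are not scaled by gene length and are compared between gates, not between genes.

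In the keratin-high gate 7 of the 9 genes were at least 2-fold higher than in the ATII gate and 0 were at least 2-fold lower. Over the 9574 features with at least 5 CPM, which included all 9 genes, 12.6% were at least 2-fold higher and 5.95% at least 2-fold lower. In the ATI gate 7 were also at least 2-fold higher than in the ATII gate and 0 lower, beside 10.3% and 6.63% of all features, and Sfn at 0.973 and Trp53 at 1.95 (1.80 to 2.10) were not among them. Ccng1 and Mdm2, at 1.97 and 1.96 in the keratin-high gate and so just under the line there, passed it in the ATI gate on the CPM scale. The median feature was itself shifted by 0.35 (log2) in the keratin-high and by 0.34 in the ATI gate, and Sftpc alone took 15.5% of all UMIs in the ATII gate against 1.92% and 4.75% in these gates. Measured from the median feature, 4 genes (Trp53, Sfn, Phlda3 and Cdkn2a) remained at least 2-fold higher in the keratin-high gate, beside 6.64% of features. In the ATI gate 5 remained (Cdkn1a, Ccng1, Phlda3, Bax and Cdkn2a), beside 5.71% of features, and Mdm2 and Trp53inp1, at log2 values of 0.98 and 0.84, fell under the line. Both comparisons use the same ATII cells.

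Trp53 itself was higher in both gates than in ATII cells. It stood at 29.2 CPM (28.4 to 30.1) in the ATII gate, 57.0 (760 UMIs, upper bound 61.2) in the ATI gate and 80.3 (77.1 to 83.5) in the keratin-high gate. The keratin-high level was 2.74 times the ATII level (2.61 to 2.88) and 1.41 times the ATI level (1.30 to 1.53). Among the 3 gates, it and Sfn were the 2 genes of the group with their highest level in the keratin-high gate. Outside the gates Trp53 reached 117 CPM (101 to 135) in the 128 cells high in endothelial markers. Since p53 is controlled mainly through its protein, these RNA levels do not measure its activity.

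Mdm2, the feedback target, stood at 38.4 CPM (37.4 to 39.4) in the ATII gate, 96.3 (91.1 to 102) in the ATI gate and 75.3 (72.2 to 78.4) in the keratin-high gate. The ATI level was 2.51 times the ATII level (2.36 to 2.66), and the keratin-high level 1.96 times (1.87 to 2.06), just under the 2-fold line.

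Cdkn1a, the arrest gene, had its highest level among the 3 gates in ATI cells. It stood at 301 CPM (298 to 304) in the ATII gate, 806 (791 to 822) in the ATI gate and 603 (594 to 612) in the keratin-high gate. The ATI level was 2.68 times the ATII level (2.62 to 2.74). The keratin-high level was 2.00 times the ATII level (1.97 to 2.04), on the 2-fold line with an interval reaching below it, and 0.748 times the ATI level (0.730 to 0.766). Ccng1 kept the same order, at 60.7 CPM (59.5 to 61.9), 189 (182 to 197) and 120 (116 to 124). Its ATI level was 3.12 times its ATII level (2.99 to 3.26), and its keratin-high level 1.97 times (1.90 to 2.05).

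Sfn had an order of its own. Its level was 72.0 CPM (70.7 to 73.3) in the ATII gate, 70.1 (65.6 to 74.7) in the ATI gate and 752 (742 to 761) in the keratin-high gate. The keratin-high level was 10.4 times the ATII level (10.2 to 10.7), which placed Sfn 103rd of the 9574 features, and 10.7 times the ATI level (10.0 to 11.5). ATI and ATII cells were not separated, with a ratio of 0.973 and an interval from 0.910 to 1.04. Relative to the median feature, Sfn was lower in ATI than in ATII cells by a log2 value of -0.38. Keratin-high over ATI, Sfn was the 1 member at least 2-fold higher (6.02% of all features) and Cdkn2a the 1 member at least 2-fold lower (4.21%), and the other 7 lay between 0.632 and 1.41. Sfn was sparse in cells with markers of other lineages. These cells had under 500 Sftpc per 10000 UMIs and at least 20 UMIs per 10000 of 5 markers, and 444 of the 446 such assignments lay outside the gates. Sfn reached 17.5 CPM in the 128 endothelial-marker-high cells, 5.18 in the 242 fibroblast-marker-high cells and 15.5 in the 76 immune-marker-high cells.

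Cdkn2a differed most between ATI and ATII cells. It stood at 30.6 CPM (29.8 to 31.5) in the ATII gate, 264 (255 to 272) in the ATI gate and 103 (99.9 to 107) in the keratin-high gate. The ATI level was 8.60 times the ATII level (8.24 to 8.99), 85th of the 9574 features, and the keratin-high level 0.392 times the ATI level (0.374 to 0.412). Its neighbour Cdkn2b, which encodes the related inhibitor p15, kept the same order, at 36.0 CPM in the ATII, 213 in the ATI and 108 in the keratin-high gate. Cdkn2a was at 3.75 CPM in the endothelial-marker-high cells but at 134 and 167 in the fibroblast- and immune-marker-high cells. The 5 fibroblast markers summed to 30.9, 9.82 and 10.6 CPM and the 5 immune markers to 3.93, 0.824 and 0.424 CPM in the ATII, ATI and keratin-high gates. Their part in the Cdkn2a levels was not tested.

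Phlda3, Bax and Trp53inp1 were all highest in the ATI gate among the 3 gates. Phlda3 stood at 58.8 CPM (57.7 to 60.0) in the ATII gate, 275 (267 to 285) in the ATI gate and 205 (200 to 210) in the keratin-high gate, ratios to ATII of 4.68 and 3.49. Bax, whose product permeabilises mitochondria, was at 145 (143 to 147), 408 (397 to 419) and 361 (354 to 367) CPM, ratios of 2.81 and 2.48. Trp53inp1 was at 26.5 (25.7 to 27.3), 60.3 (56.2 to 64.6) and 54.8 (52.2 to 57.5) CPM. Its ATI and keratin-high levels differed little, with a ratio of 0.908 (0.834 to 0.989).

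**Figure D1:**
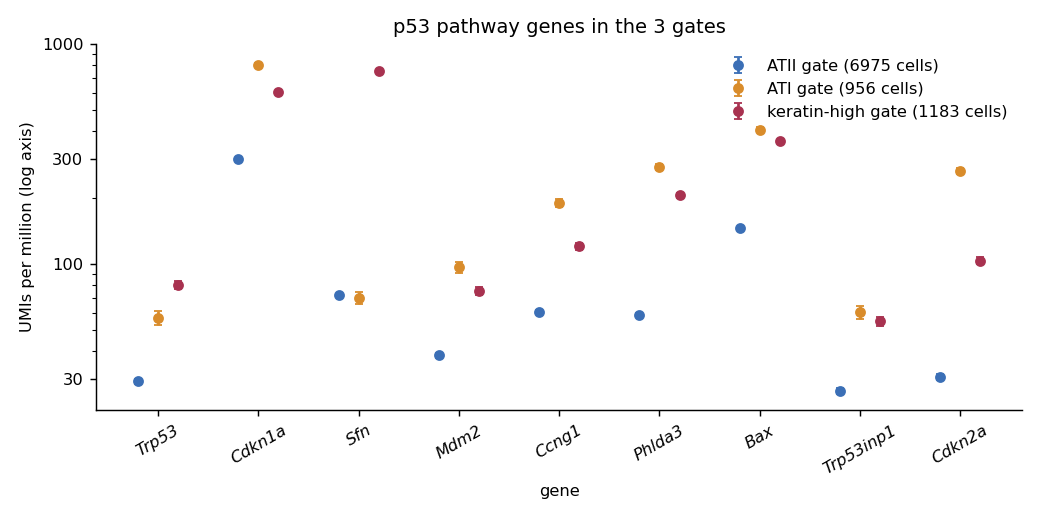
Levels of the 9 genes in CPM (log axis) in the ATII (blue), ATI (orange) and keratin-high (red) gates, each point 1 pooled level with its Poisson 95% interval. Sfn lies at 72.0, 70.1 and 752, whereas the other genes are higher in both gates than in the ATII gate and all of those except Trp53 are highest in ATI cells.

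Cells were next grouped jointly by keratin and Hopx level into 21 strata, of which 16 held at least 50 cells. Within the lowest Hopx class (under 2 UMIs per 10000), Sfn climbed with keratin at every step, from 33.3 CPM at keratin under 5 to 89.7 at 10 to 20, 672 at 50 to 100 and 1322 at 100 to 200. From keratin 20 upward, more Hopx went with less Sfn at the same keratin level. At keratin 20 to 50 Sfn was 233, 181 and 87.9 CPM in the lowest, middle and highest Hopx class. Below keratin 20 the middle class was not lower than the lowest, at 99.9 (93.9 to 106) against 89.7 CPM (87.0 to 92.3) for keratin 10 to 20. For keratin at 50 to 100, Sfn was 672 CPM at Hopx under 2, 442 at Hopx 2 to 15 and 197 at Hopx of at least 15. Cdkn1a ran the other way along Hopx, at 525, 690 and 906 CPM in the same 3 strata. In the highest Hopx class Cdkn1a changed little with keratin, between 772 and 906 CPM in its 4 strata, while in the lowest class it went from 241 CPM at keratin under 5 to 525 at 50 to 100 and 470 at 100 to 200. Cdkn2a in the highest Hopx class was lower at higher keratin, from 281 CPM (253 to 311) at keratin 5 to 10 to 199 (179 to 220) at 50 to 100. In the other classes it was higher at higher keratin, going from 61.5 CPM at keratin 5 to 10 to 159 at 100 to 200 in the middle class and from 30.5 to 91.0 in the lowest, where it stood at 46.3 at keratin under 5.

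**Figure D2:**
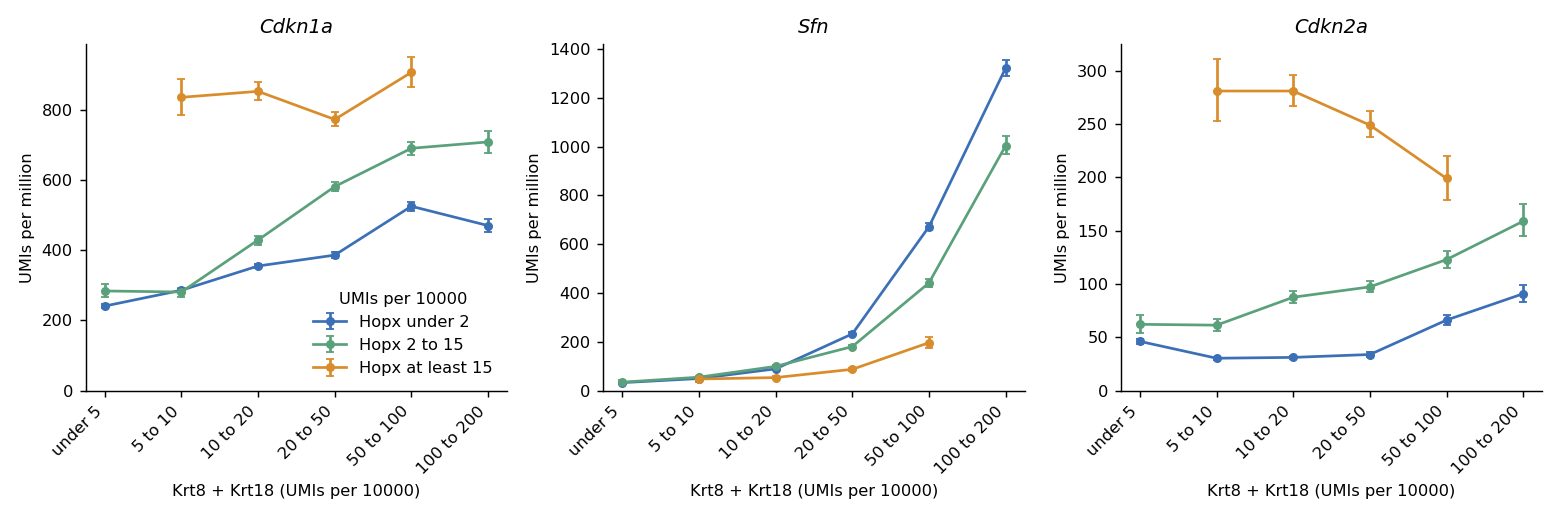
Levels of Cdkn1a, Sfn and Cdkn2a (CPM, with Poisson 95% intervals) against Krt8 plus Krt18 (UMIs per 10000), 1 line for each Hopx class, for strata of at least 50 cells. Sfn climbs with keratin to 1322 and is lowest in the highest Hopx class, where Cdkn1a and Cdkn2a are highest.

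The 1129 ungated cells with Sftpc of at least 500 and Hopx of 2 to 15 lay between the gates for several genes. Cdkn1a was at 366 CPM (359 to 374), Phlda3 at 105 (101 to 109) and Cdkn2a at 76.8 (73.4 to 80.3), each above the ATII and below the ATI level. Sfn was at 87.1 CPM (83.5 to 90.9), above both.

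Inside the keratin-high gate the same split was seen between the 127 cells with Hopx of at least 15 and the 1056 below. Sfn was at 258 CPM (237 to 281) in the former and 789 (778 to 799) in the latter, a ratio of 0.328 (0.301 to 0.357). Cdkn2a had a ratio of 2.09 (1.88 to 2.31), Phlda3 of 1.88 (1.74 to 2.03), Ccng1 of 1.70 (1.53 to 1.88) and Cdkn1a of 1.68 (1.61 to 1.76). In the cells with raised Hopx Cdkn1a was at 968 CPM, Phlda3 at 364 and Bax at 515, each above the ATI gate at 806, 275 and 408. Trp53inp1 at 71.2, Trp53 at 78.7 and Sfn at 258 were also above the ATI gate, at 60.3, 57.0 and 70.1. Ccng1 was near it, at 194 against 189. Cdkn2a at 201 and Mdm2 at 79.1 were below it, against 264 and 96.3. Trp53 was not separated, at 78.7 against 80.4 CPM with a ratio of 0.978 (0.831 to 1.14), and neither was Mdm2, with a ratio of 1.06 (0.897 to 1.23). The cells with raised Hopx were shallower, at a median of 15598 against 24807 UMIs, and 0 of them against 45 of the others were cycling; the part of either in these ratios was not tested.

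Across the 16 strata, Cdkn1a correlated with Ccng1 and Phlda3 at r = 0.97, with Trp53inp1 at 0.96, with Mdm2 at 0.95 and with Bax at 0.94, but with Sfn at 0.37 (Pearson, log2 of CPM plus 1). Sfn was closest to Trp53, at 0.83, and farthest from Cdkn2a, at 0.10. The strata share cells' depth and composition, being cut from 1 matrix, so these values are descriptions. Among the features with at least 5 CPM, leaving out the gate genes Krt8, Krt18 and Hopx, the 5 nearest to Cdkn1a were Psrc1 (0.981), Rab40c (0.976), Phlda3 (0.975), Rab11b (0.970) and Zmat3 (0.970). The 5 nearest to Sfn were the glycolytic enzyme gene Tpi1 (0.989), R3hdm4 (0.988), the transglutaminase gene Tgm1 (0.986), Mpzl2 (0.985) and the pyrophosphatase gene Ppa1 (0.983).

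**Figure D3:**
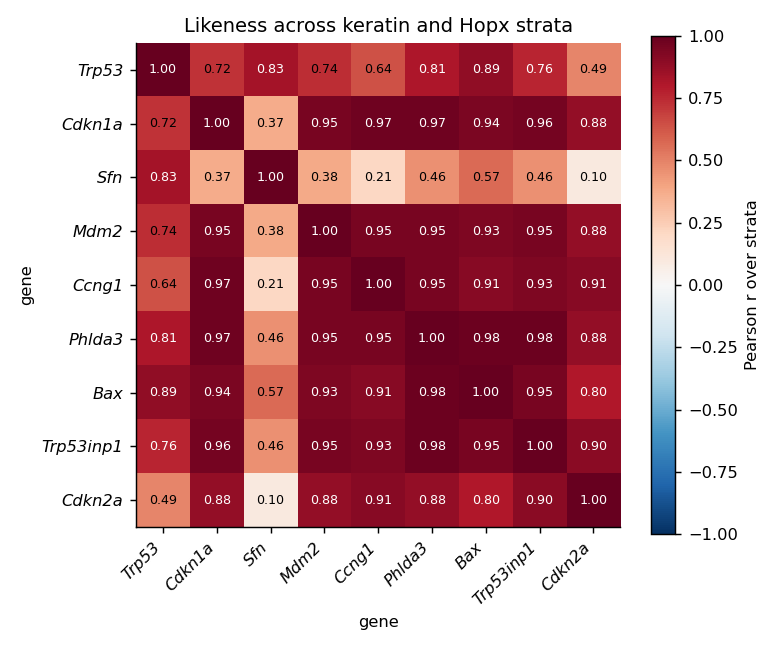
Pearson correlation of log2 levels between the 9 genes over the 16 keratin and Hopx strata, from -1 (blue) to 1 (red). The row of Sfn runs from pale, with 0.10 for Cdkn2a and 0.37 for Cdkn1a, to dark for Trp53 at 0.83, and the rows of Cdkn1a, Mdm2, Ccng1, Phlda3, Bax and Trp53inp1 are uniformly dark among themselves.

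To compare single cells at 1 depth, each cell was thinned to 5000 UMIs, which left out 203 ATII, 115 ATI and 93 keratin-high cells. Cdkn1a was then detected in 54.0% of ATII cells (52.8 to 55.2, exact binomial), 75.5% of ATI cells (72.5 to 78.4) and 69.1% of keratin-high cells (66.2 to 71.8). Without thinning the shares were 79.6%, 82.5% and 87.0%. Cells with 6 or more Cdkn1a UMIs made up 6.66%, 33.2% and 20.2% of the thinned gates. Both the share of cells with a Cdkn1a UMI and the UMIs per cell were thus larger in the ATI and keratin-high gates. The share due to RNA from outside the cell was not estimated, and Cdkn1a stood at 448 CPM in the endothelial-marker-high cells. Sfn was detected in 21.9% of thinned ATII cells (21.0 to 22.9), 19.4% of ATI cells (16.8 to 22.2) and 69.6% of keratin-high cells (66.8 to 72.4), against 51.8%, 34.3% and 85.5% without thinning. The thinned shares were 7.59%, 1.64% and 4.41% in the endothelial-, fibroblast- and immune-marker-high cells, whose median depths were 9437, 14692 and 23873 UMIs. Sfn was uneven among keratin-high cells: 30.4% had 0 UMIs and 20.6% had 6 or more, up to 88. Cdkn2a was detected in 12.6% of thinned ATII, 62.5% of ATI and 30.4% of keratin-high cells, and in 1.27% of endothelial-marker-high cells. A thinned cell had on average 2.20 of the 9 genes detected in the ATII gate, 4.40 in the ATI gate and 4.16 in the keratin-high gate.

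**Figure D4:**
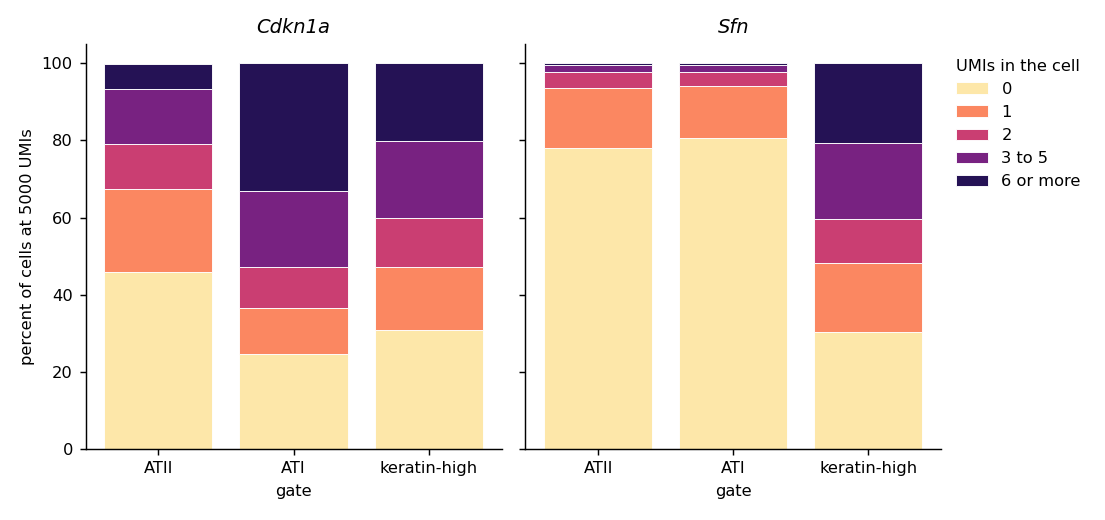
Percent of cells in each gate, at 5000 UMIs a cell, with 0, 1, 2, 3 to 5 or 6 or more UMIs of Cdkn1a (left) and Sfn (right). For Cdkn1a the class of 6 or more takes 6.66% of ATII, 33.2% of ATI and 20.2% of keratin-high cells, and for Sfn it takes 20.6% of keratin-high cells and under 0.5% of the others.

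Within a gate, Cdkn1a detection was set beside that of other members. In thinned ATII cells Cdkn1a was detected in 78.7% (76.5 to 80.8) of the cells with a Phlda3 UMI and in 47.4% (46.1 to 48.8) of those without. The same shares were 86.6% and 55.6% in ATI cells and 84.1% and 54.8% in keratin-high cells. In ATII cells the shares were 75.4% and 50.9% for Cdkn2a, 71.8% and 48.7% for Ccng1 and 70.0% and 51.6% for Trp53inp1. They were 64.5% and 45.6% for Bax and 61.1% and 52.5% for Mdm2. For each of these genes the share was also larger with a UMI than without in the ATI and keratin-high gates. For Sfn they were 56.4% and 53.3% in ATII, 76.1% and 75.4% in ATI and 72.2% and 61.9% in keratin-high cells. For Trp53 the intervals overlapped in all 3 gates: 55.0% (51.8 to 58.3) of ATII cells with a Trp53 UMI and 53.8% (52.5 to 55.1) of those without had a Cdkn1a UMI, and the shares were 75.3% and 75.6% in ATI and 68.6% and 69.3% in keratin-high cells. Cells of 1 mouse share their source, and how far differences between mice enter these shares was not analysed here.

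Cdkn1a, Phlda3 and Trp53inp1 were lower in cycling cells, while Sfn and Trp53 stood above the other cells. Of the 9 genes, 0 were at least 2-fold higher in the 242 cycling than in the other 11941 cells (5.39% of all features) and 3 were at least 2-fold lower (3.15%). Cdkn1a was at 157 CPM (149 to 165) in cycling cells and 0.397 times the other cells (0.376 to 0.418). Trp53inp1, at 10.2 CPM (8.19 to 12.5) from 91 UMIs, had a ratio of 0.283 (0.228 to 0.348), and Phlda3 one of 0.422 (0.381 to 0.465). Ccng1 at 0.539 and Cdkn2a at 0.552 lay just outside the line. Sfn was at 1.90 (1.83 to 1.97) and Trp53 at 1.60 (1.47 to 1.74). Cycling cells were deeper, at a median of 35367 against 19060 UMIs, and calling a cell by detected genes favours deep cells. Thinned to 5000 UMIs, Cdkn1a was detected in 43.5% and Sfn in 53.4% of cycling cells, and 232 of the 242 cells were deep enough to enter. The 5 endothelial markers, none at 0, summed to 139 CPM in cycling and 47.4 in other cells, the 5 immune markers to 119 and 51.3, the 5 fibroblast markers to 326 and 823 and the 3 club markers to 71.9 and 729. Without cells carrying such markers the log2 ratio was -1.46 for Cdkn1a (-1.33 with them), 0.97 for Sfn (0.93) and 0.63 for Trp53 (0.68). When cycling was called after thinning, the log2 ratio of Sfn was 0.46 and that of Cdkn1a -1.29.

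Since the gates hold different shares of cycling cells, ratios were also taken within them, with no value for the ATI gate, where 1 cell was cycling. In the ATII gate 1 of the 9 genes was at least 2-fold higher and 3 were lower in cycling cells (7.88% and 3.76% of all features). In the keratin-high gate 0 were higher and 5 lower (2.88% and 5.65%). Cdkn1a was at 0.449 (0.414 to 0.487) in the ATII gate, 0.335 (0.301 to 0.372) in the keratin-high gate and 0.357 (0.324 to 0.392) in ungated cells. Trp53inp1 was at 0.284, 0.251 and 0.257. Ccng1 was past the 2-fold line in both gates, at 0.469 (0.391 to 0.558) and 0.484 (0.393 to 0.591), and short of it in ungated cells at 0.629 (0.536 to 0.734). The gates parted over Sfn, which in cycling ATII cells was at 175 against 69.1 CPM, a ratio of 2.54 (2.36 to 2.73), but had a ratio of 1.17 (1.10 to 1.23) in the keratin-high gate. They parted likewise over Trp53, with ratios of 1.87 (1.64 to 2.13) and 1.04 (0.866 to 1.23). Ungated cells lay between, with a ratio of 1.32 (1.20 to 1.44) for Sfn and 1.39 (1.20 to 1.60) for Trp53. Phlda3 had a ratio of 0.515 (0.431 to 0.609) in the ATII gate, just outside the 2-fold line, and of 0.248 (0.199 to 0.306) in the keratin-high gate and 0.428 (0.366 to 0.498) in ungated cells. Cdkn2a was at 0.873 (0.722 to 1.05) in the ATII and 0.305 (0.230 to 0.399) in the keratin-high gate. The 5 immune markers summed to 38.4 CPM in the 113 cycling and 2.96 in the other ATII cells, and to 0.597 and 0.414 in the keratin-high gate. State markers shifted as well. In the ATII gate the 6 transitional markers summed to 1734 CPM in cycling and 845 in other cells, and 2 of them were at least 2-fold higher (7.88% of all features), with a median ratio of 1.69 beside 1.10 over all features. They went the other way in the keratin-high gate, at 9435 CPM in cycling and 12740 in other cells. There 0 of 6 were above 1 and 1 was at least 2-fold lower (5.65%), with a median of 0.693 beside 0.966. In the keratin-high gate the 10 ATII markers summed to 21876 CPM in cycling and 13575 in other cells, and 4 of them were at least 2-fold higher (2.88%), with a median of 1.77 beside 0.966. There 5 of 8 ATI markers were at least 2-fold lower (5.65%), with a median of 0.470. In ungated cells the 3 club markers summed to 121 CPM in cycling and 3293 in other cells, the 5 fibroblast markers to 1013 and 4074, the 5 endothelial markers to 398 and 181 and the 5 immune markers to 315 and 251. The part of these shifts in the ratios was not tested.

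**Figure D5:**
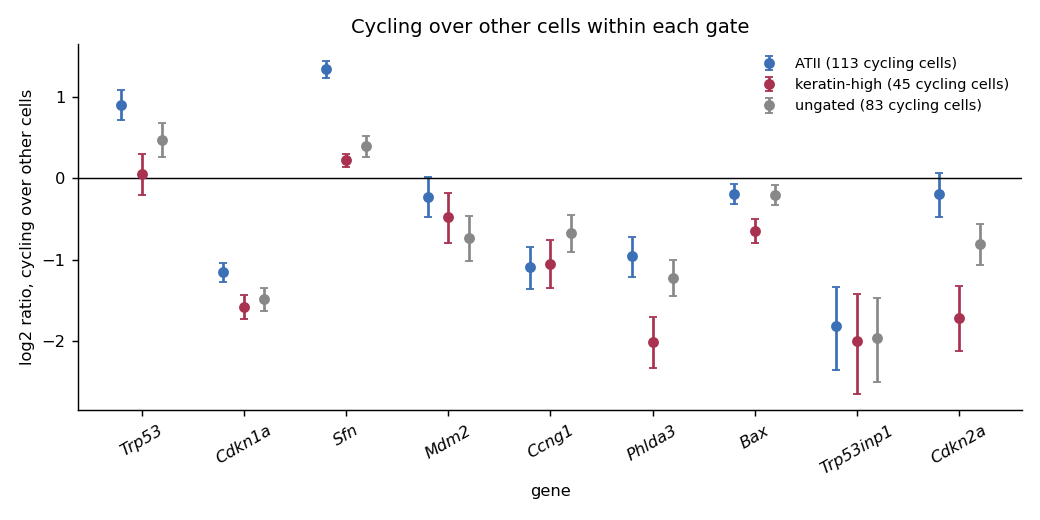
Log2 ratio of each gene's level in cycling over other cells, with 95% intervals, within the ATII gate (blue), the keratin-high gate (red) and ungated cells (grey). Cdkn1a and Trp53inp1 lie below 0 in all 3, while Sfn and Trp53 lie above 0 in the ATII gate and ungated cells and nearer to 0 in the keratin-high gate.

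A wider list of 40 p53 target genes, without the 9 above, was read in the same gates. Of its 35 members with at least 5 CPM, 9 were at least 2-fold higher and 2 at least 2-fold lower in the keratin-high than in the ATII gate (12.6% and 5.95% of all features), and its median log2 ratio of 0.36 was that of all features, 0.35. In the ATI gate 11 were higher and 4 lower (10.3% and 6.63% of all features), with a median of 0.54 beside 0.34. The ATI to ATII ratio was 5.62 for the microtubule-binding protein gene Psrc1, 3.84 for the epoxide hydrolase gene Ephx1 and 3.45 for the apoptosome gene Apaf1. It was 3.42 for Plk2, 2.94 for Aen, 2.92 for Xpc, 2.83 for Zmat3 and 2.75 for Polk. Abhd4 at 2.66, Tnfrsf10b at 2.20 and Fas at 2.12 followed. Below the line were the stress cytokine gene Gdf15 at 0.268, Plk3 at 0.332, Pltp at 0.339 and Ckmt1 at 0.378. The largest keratin-high to ATII ratios were those of Tnfaip8 at 6.92 (6.21 to 7.72), the polo-like kinase gene Plk2 at 4.68, the death receptor gene Tnfrsf10b at 4.44, and the nuclease gene Aen and the DNA repair gene Xpc, both at 2.94. The lowest were Pltp at 0.345 from a level near 1 CPM, Dcxr at 0.489, the sestrin genes Sesn2 at 0.556 and Sesn1 at 0.645, and Btg2 at 0.903. Keratin-high over ATI, 6 of the 35 were at least 2-fold higher and 2 lower (6.02% and 4.21% of all features), with a median ratio of 0.966 beside 1.00 over all features. The higher ones were Tnfaip8, Plk3, Gdf15, Ckmt1, Perp and Tnfrsf10b, with ratios from 5.87 to 2.02. The lower ones were Ephx1 and Psrc1, at 0.463 and 0.495. Aen and Xpc were level between these 2 gates, at 0.999 and 1.01. In cycling cells (5.39% of all features higher and 3.15% lower) 1 of the 35 was at least 2-fold higher, Tnfaip8 at 2.21, and 5 were lower: Dcxr at 0.393, Zmat3 at 0.425, Ephx1 at 0.441, Sesn2 at 0.452 and the apoptosis gene Bbc3 at 0.499.

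Of 14 genes that regulate p53, such as Mdm4, Atm and Ep300, 12 passed the level filter and 0 were 2-fold different in any of the 4 comparisons. Of all features, 12.6% were higher and 5.95% lower in the keratin-high and 10.3% and 6.63% in the ATI over the ATII gate, 6.02% and 4.21% in the keratin-high over the ATI gate, and 5.39% and 3.15% in cycling cells. The checkpoint kinase genes Chek1 and Chek2 fell under the filter and stood higher in cycling cells, at 18.1 (143 against 219 UMIs) and 4.68 times (116 against 687 UMIs). The other 14-3-3 genes, relatives of Sfn, included 3 of 6 that were at least 2-fold higher in the keratin-high than in the ATII gate, namely Ywhah at 4.47, Ywhag at 2.44 and Ywhaq at 2.19 (12.6% of all features). In the ATI gate 1 of 6 was at least 2-fold higher than in the ATII gate, Ywhah at 2.79 (2.69 to 2.90), beside 10.3% of all features. All 6 were above 1 there. In cycling cells 1 of 6 was at least 2-fold higher, Ywhah at 2.19 (5.39% of all features). Between keratin-high and ATI cells 0 of 6 were 2-fold different (6.02% higher and 4.21% lower). Among 9 BCL2 family genes that passed, 2 were at least 2-fold higher and 1 lower in the keratin-high than in the ATII gate (12.6% and 5.95% of all features), and 1 was higher and 2 were lower in the ATI gate (10.3% and 6.63%). Bok, a relative of Bax, stood at 6.61 CPM in the ATII, 2.70 in the ATI and 83.4 in the keratin-high gate. The BH3-only gene Bmf was at 24.3, 6.82 and 4.89 CPM. Both were lower in ATI than in ATII cells, at ratios of 0.408 (0.284 to 0.569) and 0.280 (0.225 to 0.345), and they parted in the keratin-high gate, at 12.6 and 0.201 times the ATII level. Of 5 other CDK inhibitor genes, 1 was at least 2-fold higher and 0 lower in the keratin-high than in the ATII gate (12.6% and 5.95% of all features), with a median ratio of 0.818. In the ATI gate 1 was higher and 1 lower (10.3% and 6.63%), with a median of 1.03. Cdkn2b was the higher gene in both, at 3.01 and 5.93 times the ATII level, and Cdkn2c the lower gene in the ATI gate, at 0.353 (0.257 to 0.475). In cycling cells Cdkn2b was lower, at 0.486 (3.15% of all features), whereas Cdkn2c and Cdkn2d were higher, at 7.30 and 9.40 (5.39%). Of 10 genes induced by tissue dissociation, 0 were 2-fold different between the keratin-high and the ATII gate (12.6% of all features higher and 5.95% lower) or between the ATI and the ATII gate (10.3% and 6.63%). Keratin-high over ATI, 1 was at least 2-fold higher (6.02%), the heat shock gene Hspa1b at 2.01 (1.93 to 2.08), and 0 were lower (4.21%). In cycling cells 0 were 2-fold different (5.39% and 3.15%), but 1 of 10 was above 1, with a median ratio of 0.768 beside 1.07 over all features. These 10 genes summed to 8789 CPM in cycling and 11531 in other cells. The part of this shift in the cycling ratios was not tested.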

How the data were processed

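Sorted lung tumour cells of 6 mice were profiled by 10x 3′ (v3) single-cell RNA sequencing. The authors deposited raw UMI counts per feature and barcode. These came from alignment to mm10 in Cell Ranger 3.0.2, the release named in the matrix header. Whether depth was equalised between libraries is not given in the sources used here. The file pools all libraries with no map to mice, so groups came from the labels but no test between them was made, and the planned unit of 1 pooled sample was kept.

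Cells with at least 500 genes and at most 20% mitochondrial UMIs were kept. No doublet caller was run. A further allele that all mice share is not reported here. Gate sums were scaled to 1000000 UMIs with no pseudocount, and features with at least 5 CPM over all cells were compared at a fold of 2. Thinning to 5000 UMIs used seed 42. Ratios and intervals were tested on simulated data. Python 3.11.15, numpy 2.4.6 and scipy 1.17.1 were used. Named genes were the 9 members and, of the wider p53 list, the 5 largest ratios in each direction, keratin-high over ATII. The features nearest to Cdkn1a and Sfn over strata were also named. Other listed genes were named for passing 2-fold or as examples of a list. Those under the level filter, and the features nearest to other members, were named after their values were seen. The members, gates and lists were chosen with earlier results of these data known. The alternatives covered filters, scaling, gate borders, the cycling call and the fold.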

Additional observations from a re-analysis of the deposited data

How the results depend on the processing

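The 8 counts were recomputed under 19 alternatives, and 138 of 152 values stayed within 1.5 times. Part of these values could not move, so that share overstates stability. How cycling is called does not enter the counts between gates, and gate borders do not enter the cycling counts. The level filters removed none of the 9 genes. Apart from the share given above for the median feature, shares of all features at these settings are not given here. The counts below therefore have no background beside them. Members higher in the keratin-high than the ATII gate numbered 4 relative to the median feature and 3 at a fold of 3, and members higher in the ATI than the ATII gate 3 at a fold of 3. Members lower in the keratin-high than the ATI gate numbered 2 at a fold of 1.5 and 0 at a fold of 3. Members higher in cycling cells numbered 1 (Sfn) with the mean over cells, after thinning to 5000 UMIs and with 2 of 5 cycling genes, and 2 at a fold of 1.5. Members lower in cycling cells numbered 5 with the mean over cells, after thinning, without the most abundant, gate and mitochondrial genes in the denominator and at a fold of 1.5, with Ccng1 and Cdkn2a added each time, and 1 at a fold of 3. Of 36 ratios, 0 of those past 2-fold reversed, and 1, Sfn in ATI over ATII cells, changed sign, with log2 values from -0.38 to 0.14. Of the ratios past 2-fold, 5 crossed that line. Keratin-high over ATII these were Cdkn1a (log2 0.65 to 1.10), Bax (0.96 to 1.40) and Trp53inp1 (0.70 to 1.11), and ATI over ATII they were Mdm2 (0.98 to 1.62) and Trp53inp1 (0.84 to 1.45). Of those under it, Ccng1 and Mdm2 keratin-high over ATII, Trp53 ATI over ATII, and Sfn, Ccng1 and Cdkn2a in cycling cells passed it under some alternative. No paired analysis was possible because cells were not tied to mice, and no replicate could be left out for the same reason. Depth limits Trp53inp1 in cycling cells, which rests on 91 UMIs.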

Other observations

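The 5 nearest features across the 16 strata were listed for every member, and those below were named after their values were seen. The feature ranked first for Ccng1 was Psrc1 (r = 0.988) and the next Zmat3 (0.985), both on the p53 target list and both also among the 5 nearest to Cdkn1a. Exoc4 (0.984), Ube2e1 (0.984) and Gins4 (0.979), which followed for Ccng1, were not on that list. For Phlda3, Bax, Mdm2 and Trp53inp1 the feature ranked first (Commd3, Dnaja2, Rab14 and Arhgap5) was not on it either. The third for Mdm2, Abhd4 (0.965), was on the list. For Cdkn2a the first was Cdk14 (0.986), the next Sema3e (0.981) and the third Cdkn2b (0.979). The level of Cdkn2b ran from 34.0 to 216 CPM over the strata. The 5 nearest to Trp53 were Psmc6 (0.989), Psma5 (0.988), S100a6 (0.986), Psmd12 (0.984) and Ddx1 (0.984).

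The apoptosis gene Pmaip1 was under the level filter and had 55 UMIs in the keratin-high gate, 10 in the ATII gate and 3 in the ATI gate, a keratin-high to ATII ratio of 29.0 (14.6 to 63.7). It was singled out after its values were seen.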
